A study of Mus musculus with 20 samples.

Results

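The enzymes described here carry single-carbon units on folate, and they were read in mouse liver as RNA: Mthfd1, Mthfd2, Mthfd1l, Shmt1, Shmt2, Tyms, Aldh1l1 and Aldh1l2. They were chosen by gene name, and these 8 of the 38924 genes in the deposited table were each found in a single row. Liver RNA from 20 male mice was sequenced, 5 per group, after 12 weeks on a control diet or on CDAHFD, a high-fat diet of defined amino acids that lacks choline, is low in methionine and is used to induce steatohepatitis and fibrosis. The groups were WT mice on control diet (NDWT), TSP-1 null mice on control diet (NDKO), WT mice on CDAHFD (HFWT) and TSP-1 null mice on CDAHFD (HFKO). The labels give the strain background as C57/BL6 in all 4 groups, and the TSP-1 null mice were a purchased knockout line. The mice were 5 weeks old at purchase and had 1 week of acclimation before the diets began. No other allele or agent is given in the sources used here. The sources differ on the lobe sampled, right medial in one and right lateral in the other.

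Folate enzymes work as parallel arms of a cycle, with the members in mitochondria mirroring those in the cytosol. Serine hydroxymethyltransferase moves a carbon from serine to tetrahydrofolate, leaving glycine, and exists as Shmt1 in the cytosol and Shmt2 in mitochondria. In mitochondria Mthfd2 oxidizes the carbon unit and Mthfd1l releases it as formate, and in the cytosol the trifunctional Mthfd1 puts formate back on folate and interconverts the carbon units for purine, thymidylate and methionine synthesis. Aldh1l1 in the cytosol and Aldh1l2 in mitochondria burn surplus formyl units to carbon dioxide, and Tyms uses methylenetetrahydrofolate to make thymidylate for DNA. Adult liver is known for high levels of the cytosolic enzymes, whereas Mthfd2 is known as low in most adult tissues and high in dividing cells. Choline, which CDAHFD withholds, is a methyl donor whose breakdown products also load carbon units onto folate.

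Values are FPKM, that is fragments per kilobase of gene length, scaled to the total of fragments assigned to genes, and a level is comparable between genes only on this per-length scale. Libraries held 15641545 to 23276322 fragments, so that 3 fragments on a gene of 1 kb corresponded to 0.129 to 0.192 FPKM. Thbs1, the gene targeted in the knockout, was read first and went against the labels on the control diet. It stood at 0.058 to 0.326 FPKM in NDWT and at 0.986 to 1.90 FPKM in NDKO, and at 3.46 to 6.10 FPKM in HFWT and 3.05 to 4.40 FPKM in HFKO. Genotypes below are therefore those of the labels, and any direction between them is a direction between labels. The 10 hepatocyte markers summed to 29074 to 50004 FPKM per library, so the labelled tissue was seen in all 20.

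The 8 enzymes fell into a high and a low set, in every group (see the plot of FPKM per library). Aldh1l1, Shmt2, Mthfd1 and Shmt1 had group means between 30.7 and 227 FPKM. Tyms, Mthfd2, Mthfd1l and Aldh1l2 had group means between 0.0344 and 2.10 FPKM, so that the lowest library of the high set, 26.0 FPKM for Shmt1, stood well above the highest library of the low set, 2.68 FPKM for Mthfd2. Of the mitochondrial members only Shmt2 belonged to the high set. On the control diet the order of mean levels was Aldh1l1, Shmt2, Mthfd1, Shmt1, Tyms, Mthfd2, Mthfd1l and Aldh1l2 in both genotypes. Neighbours whose libraries overlapped in that order were Mthfd1 and Shmt1 in NDWT, and in NDKO Shmt2 with Mthfd1, Mthfd2 with Mthfd1l, and Mthfd1l with Aldh1l2. On CDAHFD Mthfd2 and Mthfd1l had means above that of Tyms, but the 3 genes overlapped in single libraries.

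**Figure D1:**
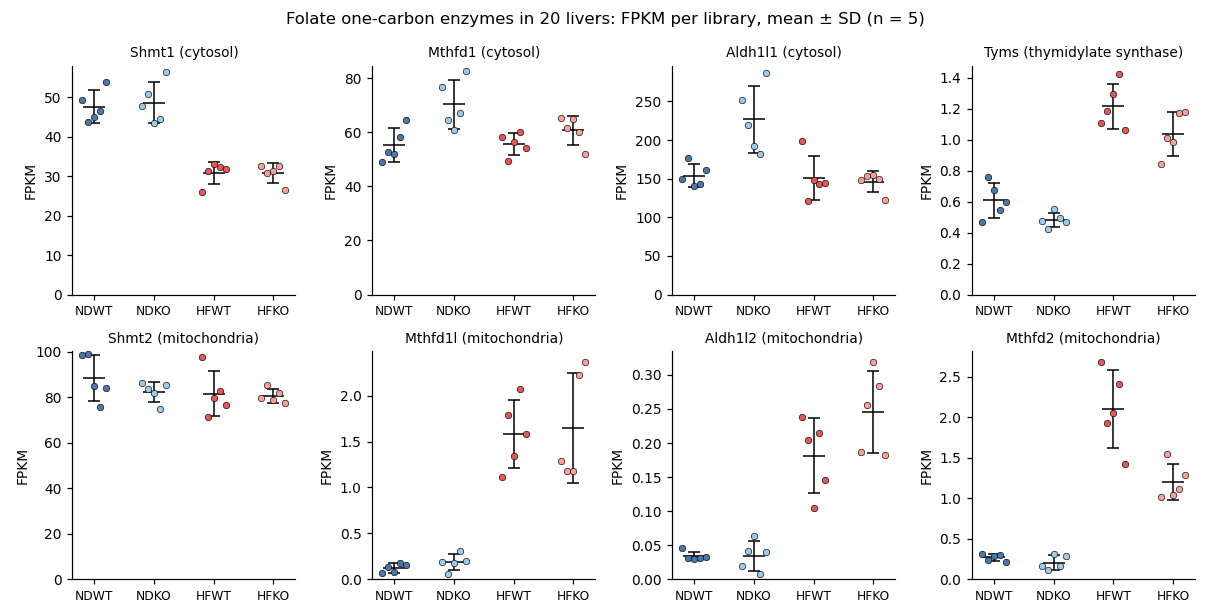
FPKM of the 8 enzymes in each of the 20 libraries, 1 panel per gene with its own linear axis from 0. Circles are libraries in the order of the replicate numbers, the black bar is the group mean and the whiskers are 1 SD (n = 5). The 10 CDAHFD libraries lie above the 10 control diet libraries for Mthfd2, Mthfd1l, Aldh1l2 and Tyms and below them for Shmt1.

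To be called as a differentially expressed gene (DEG), a gene needed a limma FDR below 0.05 (Benjamini-Hochberg) together with a log2FC beyond 0.58 in either direction. The scale was log2(FPKM + 0.1), and a fold change on this scale understates the change of low genes. Of the 8 enzymes 7 were tested, among 14524 genes that exceeded 0.5 FPKM in 5 or more libraries. Aldh1l2 passed 0.5 FPKM in 0 libraries and was not among them. Mthfd2 and Mthfd1l exceeded 0.5 FPKM in the 10 CDAHFD libraries and in 0 control diet libraries, so they entered the test only through the diet in which they were high, and Tyms did so in 15 libraries. Under CDAHFD in WT mice 3 of the 7 tested enzymes rose (Mthfd2, Mthfd1l and Tyms, the last of which turned to −0.14 with quantile normalization) and 1 fell (Shmt1), against 48.8% of all tested genes called in either direction. By direction, 44.1% of all tested genes were called higher and 4.62% lower in that comparison. In TSP-1 null mice the same 3 rose and 2 fell (Shmt1 and Aldh1l1), against 45.9% called, 41.9% higher and 4.0% lower. Diet groups that did not overlap were found for 50.5% of all tested genes as higher and 5.7% as lower in WT, and for 52.7% and 5.03% among TSP-1 null livers. The median log2FC of the 7 enzymes was 0.01 in WT and −0.03 in the TSP-1 null mice, beside 0.53 and 0.50 for all tested genes.

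That shift of the whole distribution depended on the scaling. With libraries rescaled by the median of ratios, that is by the median over genes of each library's ratio to the gene's geometric mean, the median log2FC of all tested genes was 0.01 and 0.00258 in the diet comparisons, and calls over all tested genes went from 6412 higher and 671 lower to 3351 and 2145 in WT and from 6088 and 581 to 3283 and 1921 in the TSP-1 null mice. With quantile normalization they were 2514 and 2562 in WT and 2421 and 2186 in the TSP-1 null mice. With the median of ratios Mthfd2 and Mthfd1l were still called higher and Shmt1 lower, with log2FC of 2.07, 2.48 and −1.16 in WT and of 1.71, 2.20 and −1.18 in the TSP-1 null mice. Shmt2 and Aldh1l1 in WT, at −0.66 and −0.58, and Mthfd1 in the TSP-1 null mice, at −0.73, also passed both thresholds as lower with the median of ratios, and none of these 3 did with quantile normalization. Directions for Shmt2, Mthfd1 and, in WT, Aldh1l1 are therefore given relative to the scaling named.

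**Figure D2:**
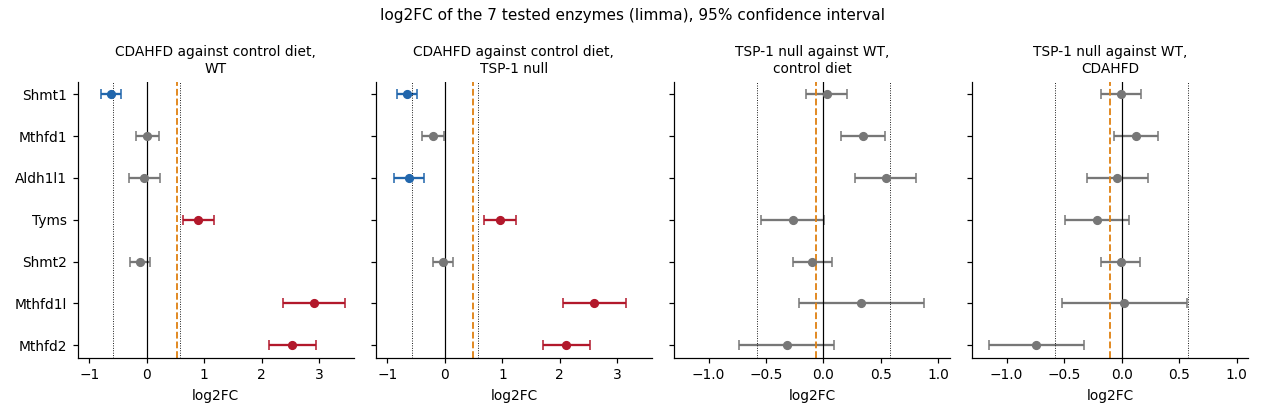
log2FC of the 7 tested enzymes in the 2 diet and the 2 genotype comparisons, with 95% confidence intervals from limma. Red and blue points passed both thresholds as higher and lower and grey points did not, dotted lines mark the fold threshold of 0.58 and the dashed orange line is the median of all 14524 tested genes. Mthfd2, Mthfd1l and Tyms lie to the right and Shmt1 to the left under both diet contrasts on the FPKM scale (Tyms at −0.14 and −0.01 with quantile normalization), and no enzyme passed in a genotype contrast.

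The upstream sequences of the 3 tested enzymes called higher on CDAHFD in both genotypes on the FPKM scale are shown. They are the 250 bases before the transcript start in RefSeq on GRCm38.p6. Of the 8 enzymes 7 had such an entry, with 50 further bases after the start, and Aldh1l2 had none. The entry of Mthfd2 covers chr6:83317605-83317854 (minus strand), that of Mthfd1l chr10:3972825-3973074 (plus strand) and that of Tyms chr5:30073626-30073875 (minus strand). Capitals mark the E-box.
Mthfd2: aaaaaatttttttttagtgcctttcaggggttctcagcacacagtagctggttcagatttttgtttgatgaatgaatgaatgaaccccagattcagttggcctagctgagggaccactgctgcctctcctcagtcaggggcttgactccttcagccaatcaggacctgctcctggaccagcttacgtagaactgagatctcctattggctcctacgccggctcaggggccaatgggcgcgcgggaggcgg
Mthfd1l: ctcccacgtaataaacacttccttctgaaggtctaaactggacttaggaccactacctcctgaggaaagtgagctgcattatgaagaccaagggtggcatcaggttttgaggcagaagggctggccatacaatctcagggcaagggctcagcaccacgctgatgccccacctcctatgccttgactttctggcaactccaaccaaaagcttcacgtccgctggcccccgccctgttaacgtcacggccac
Tyms: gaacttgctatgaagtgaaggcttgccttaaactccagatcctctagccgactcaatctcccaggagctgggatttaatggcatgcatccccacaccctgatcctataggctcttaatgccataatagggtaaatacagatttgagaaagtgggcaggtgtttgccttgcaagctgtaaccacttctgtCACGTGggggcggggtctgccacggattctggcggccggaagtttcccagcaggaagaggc

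Both strands of the 300-base windows were searched for 4 motifs. These were the amino acid response element read by ATF4 and CEBP factors (TGATGNAA), the E-box read by MYC (CACGTG), the antioxidant response element read by NRF2 (TGACNNNGC) and an E2F site (TTTNNCGC). The Tyms window held the E-box 61 bases before the start and an E2F match, TTTGTCGC, 42 bases after it. Shmt2, which was not called, held an E2F match, TTTCTCGC, 30 bases after its start, and the windows of Mthfd1, Mthfd2, Mthfd1l, Shmt1 and Aldh1l1 held none of the 4. Of 32851 windows of the same length, 3.97% held the amino acid response element, 7.15% the E-box, 12.4% the antioxidant response element and 5.17% the E2F site. These matches describe letters only, and nothing on binding was measured.

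The mitochondrial pair Mthfd2 and Mthfd1l showed the widest diet differences of the 7 tested enzymes. Mthfd2 (ENSMUSG00000005667.6, GRCm38 chromosome 6, 83305691 to 83317606, minus strand) was at 0.316, 0.242, 0.289, 0.30 and 0.221 FPKM in NDWT and at 2.68, 1.93, 2.05, 2.41 and 1.42 FPKM in HFWT. In TSP-1 null livers it was at 0.160, 0.113, 0.314, 0.161 and 0.291 FPKM on the control diet and at 1.02, 1.55, 1.04, 1.12 and 1.29 FPKM on CDAHFD. Every CDAHFD library was above every control diet library of the same genotype, and the control diet values rested on 7 to 20 fragments per library. Mthfd2 rose by a log2FC of 2.54 (SE 0.20, FDR 1.13e-09) in WT and of 2.11 (SE 0.20, FDR 1.6e-08) in the TSP-1 null mice, or 7.67-fold and 5.79-fold as ratios of mean FPKM. With a pseudocount of 1 in place of 0.1 these log2FC were 1.27 and 0.86, and with quantile normalization 1.45 and 1.02.

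Mthfd1l (ENSMUSG00000040675.11, chromosome 10, 3973118 to 4167081, plus strand) was at 0.068, 0.135, 0.076, 0.184 and 0.158 FPKM in NDWT and at 1.12, 1.78, 1.35, 2.07 and 1.58 FPKM in HFWT. In NDKO it was at 0.186, 0.060, 0.181, 0.310 and 0.201 FPKM, and in HFKO at 1.29, 1.18, 1.18, 2.23 and 2.37 FPKM. The diets did not overlap in either genotype, and 2 HFKO libraries stood apart from the other 3. The log2FC was 2.91 (SE 0.26, FDR 7.79e-09) in WT and 2.60 (SE 0.26, FDR 4.1e-08) in the TSP-1 null mice, or 12.7-fold and 8.78-fold as ratios of means. A pseudocount of 1 gave 1.19 and 1.13, and quantile normalization 1.66 in WT, with both genotypes still called. The control diet libraries held 6 to 22 fragments of this gene, so the fold is less certain than the direction.

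Mthfd1, the cytosolic trifunctional enzyme (ENSMUSG00000021048.6, chromosome 12, 76255232 to 76319820, plus strand), did not follow its mitochondrial relatives. It was at 49.1, 52.8, 51.8, 58.2 and 64.6 FPKM in NDWT and at 58.1, 49.5, 56.3, 60.2 and 54.0 FPKM in HFWT, with overlapping groups and a log2FC of 0.01 ± 0.19 (95% confidence half-width, FDR 0.914). In TSP-1 null livers Mthfd1 was at 76.5, 64.3, 60.6, 67.2 and 82.6 FPKM on the control diet and at 65.3, 61.6, 64.8, 59.9 and 51.7 FPKM on CDAHFD (log2FC −0.21, FDR 0.0510). Neither comparison passed the test. Scaled by the median of ratios, the log2FC was −0.53 in WT (FDR 1.67e-04) and −0.73 in the TSP-1 null mice.

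Shmt1 was the cytosolic enzyme that fell on CDAHFD in both genotypes. Shmt1 (ENSMUSG00000020534.8, chromosome 11, 60788104 to 60811718, minus strand) was at 49.3, 43.6, 44.9, 46.4 and 53.9 FPKM in NDWT and at 26.0, 31.3, 33.1, 32.3 and 31.7 FPKM in HFWT. In NDKO it was at 47.8, 50.9, 43.4, 44.5 and 56.3 FPKM, and in HFKO at 32.5, 30.8, 31.4, 32.5 and 26.5 FPKM. All 10 CDAHFD libraries were below all 10 control diet libraries. The log2FC was −0.62 (SE 0.08, FDR 1.86e-06) in WT and −0.66 (SE 0.08, FDR 1.08e-06) in the TSP-1 null mice, where 4.62% and 4.0% of all tested genes were called lower. The WT value lay close to the fold threshold, at −0.58 without NDWT replicate 5 and −0.56 without HFWT replicate 1, both no longer past it. Quantile normalization gave −0.81 and −0.88.

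Its mitochondrial counterpart Shmt2 (ENSMUSG00000025403.4, chromosome 10, 127517123 to 127522444, minus strand) held its FPKM level more closely. It was at 98.5, 98.8, 85.1, 75.8 and 84.2 FPKM in NDWT, and at 97.8, 71.3, 79.7, 82.8 and 76.5 FPKM in HFWT (log2FC −0.12 ± 0.17, FDR 0.197). In NDKO it was at 86.2, 83.5, 82.1, 75.0 and 85.3 FPKM, and in HFKO at 79.9, 85.4, 78.7, 81.7 and 77.7 FPKM (log2FC −0.03 ± 0.17, FDR 0.750). The diets overlapped in both genotypes, and these intervals hold no change as large as the fold threshold on the FPKM scale. On the median of ratios scale the values were −0.66 in WT and −0.55 in the TSP-1 null mice.

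Aldh1l1, the cytosolic formyltetrahydrofolate dehydrogenase, was the most abundant of the 8 enzymes in every group and on the FPKM scale its diet difference was called in the TSP-1 null mice but not in WT. With the median of ratios Aldh1l1 was called lower in both genotypes (−0.58 in WT and −1.14), and with quantile normalization in neither (0.03 in WT and −0.54). Aldh1l1 (ENSMUSG00000030088.9, chromosome 6, 90486427 to 90600203, plus strand) was at 150, 176, 141, 143 and 161 FPKM in NDWT and at 199, 121, 148, 143 and 144 FPKM in HFWT, with overlap and a log2FC of −0.04 (SE 0.13, FDR 0.771). In NDKO it was at 251.965, 220, 193, 182 and 287 FPKM, and in HFKO at 148, 154, 155, 150 and 122 FPKM, with every HFKO library below every NDKO library. It fell by a log2FC of −0.62 (SE 0.13, FDR 2.25e-04) in the TSP-1 null mice. That call was lost without NDKO replicate 1, at −0.58, without NDKO replicate 5, at −0.53, and without HFKO replicate 5, at −0.56, each with an FDR of at most 0.00100. The test of the difference between the genotypes' diet effects did not pass (log2FC −0.58, SE 0.18, FDR 0.126), where 0.647% of all tested genes were called.

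Aldh1l2, the mitochondrial form (ENSMUSG00000020256.8, chromosome 10, 83487450 to 83534140, minus strand), was the least abundant enzyme in each group by its mean. It was at 0.046, 0.032, 0.030, 0.031 and 0.033 FPKM in NDWT and at 0.238, 0.205, 0.105, 0.214 and 0.146 FPKM in HFWT. In NDKO it was at 0.019, 0.041, 0.064, 0.008 and 0.040 FPKM and in HFKO at 0.187, 0.256, 0.319, 0.283 and 0.182 FPKM. The diets did not overlap in either genotype, on 1 to 9 fragments per control diet library and 16 to 43 per CDAHFD library. On log2(FPKM + 0.1) the difference was 1.04 in WT and 1.36 in the TSP-1 null mice (two-sided exact permutation test, n = 5 against 5, p = 0.00794 in each, the smallest that 5 libraries against 5 allow). Of the 7577 stretches of 31 bases in the transcripts of Aldh1l2, 1026 are shared with D10Wsu102e, a gene on the opposite strand at 3.46 to 8.03 FPKM, and how its fragments were split was not tested.

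Tyms, thymidylate synthase (ENSMUSG00000025747.6, chromosome 5, 30058202 to 30073617, minus strand), was at 0.466, 0.758, 0.674, 0.546 and 0.601 FPKM in NDWT and at 1.11, 1.19, 1.30, 1.42 and 1.06 FPKM in HFWT. In NDKO it was at 0.477, 0.426, 0.553, 0.493 and 0.471 FPKM, and in HFKO at 0.841, 1.01, 0.986, 1.17 and 1.18 FPKM. Every CDAHFD library was above every control diet library of its genotype. Tyms rose on the FPKM scale, by a log2FC of 0.90 (SE 0.13, FDR 5.37e-06) in WT and 0.96 (SE 0.13, FDR 2.77e-06) in the TSP-1 null mice, but with quantile normalization the values were −0.14 and −0.01. With the median of ratios they were 0.41 and 0.50, and with a pseudocount of 1 they were 0.46 in both genotypes, under the fold threshold each time. Relative to the median of all tested genes the difference was 0.37 in WT and 0.46 in the TSP-1 null mice. Its window is the only one of the 7 that held the E-box printed above. Tyms also shares 326 of its 6234 stretches of 31 bases with the pseudogene Tyms-ps. Stretches were also shared by Aldh1l1 with its antisense gene Gm15756 (443 of 4563 stretches), for Shmt1 with Smcr8 (154 of 3951) and for Shmt2 with Gm15544 (114 of 3214).

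Within a library the ratio of a mitochondrial enzyme to its cytosolic paralogue does not depend on a factor applied to the whole library, apart from the pseudocount. Quantile normalization is not such a factor, and the ratios were not computed with it. All 3 such ratios were higher on CDAHFD in both genotypes, without overlap (two-sided exact permutation tests, n = 5 against 5, p = 0.00794 for each, adjusted over 12 tests 0.0159). The log2 ratio of Shmt2 to Shmt1 was 0.89 ± 0.22 in NDWT and 1.40 ± 0.29 in HFWT (SD, n = 5), and 0.77 ± 0.12 in NDKO and 1.39 ± 0.11 in HFKO. The log2 ratio of Mthfd1l to Mthfd1 went from −7.97 ± 0.23 to −5.08 ± 0.36 in WT and from −7.99 ± 0.48 to −5.18 ± 0.59 in the TSP-1 null mice. For Aldh1l2 to Aldh1l1 it went from −10.16 ± 0.15 to −9.07 ± 0.34 in WT, and from −10.72 ± 0.34 to −8.74 ± 0.18 in the TSP-1 null mice. The size of the last 2 ratios' differences depended on the pseudocount. With pseudocounts of 1 and 0.01 the difference for Mthfd1l to Mthfd1 was 1.18 and 3.61 in WT, and 1.34 and 3.36 among TSP-1 null livers. For Aldh1l2 to Aldh1l1 it was 0.23 and 2.11 in WT, the former not passing (adjusted exact p = 0.143), and 0.88 and 3.27 among TSP-1 null livers. As differences of medians none of the 6 diet contrasts passed (adjusted exact p = 0.0816 for each). Several arrangements tie at the largest difference of medians, so groups without overlap can give no lower unadjusted p there. That result therefore cannot tell whether these ratios hold.

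**Figure D3:**
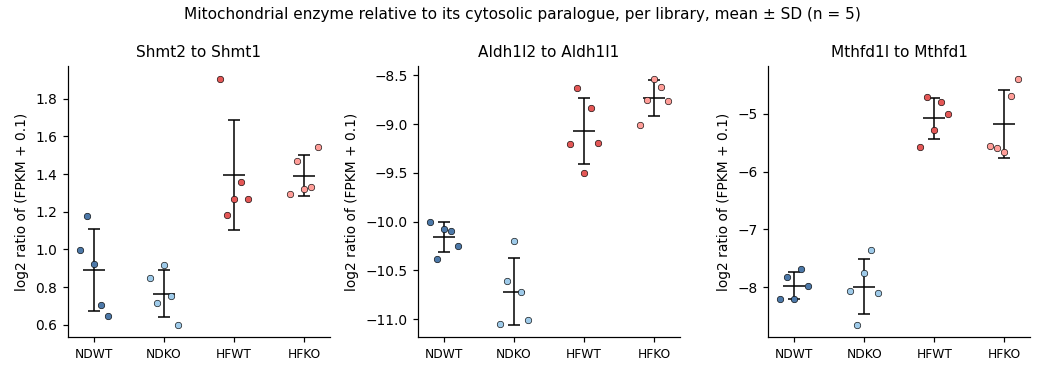
log2 ratio of (FPKM + 0.1) of the mitochondrial enzyme to the cytosolic paralogue in each of the 20 libraries, for Shmt2 to Shmt1, Aldh1l2 to Aldh1l1 and Mthfd1l to Mthfd1. Circles are libraries, bars are means and whiskers are 1 SD (n = 5), and each panel has its own axis that does not start at 0. The CDAHFD groups lie above the control diet groups of the same genotype in all 3 panels, by 0.51 and 0.63, by 1.09 and 1.98, and by 2.90 and 2.81.

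As shares of summed FPKM, the diet differences of these paralogue pairs ranged widely in size. Shmt2 made up 64.9% ± 3.42 of the 2 hydroxymethyltransferase transcripts in NDWT and 72.4% ± 3.81 in HFWT, and 63.0% ± 2.00 and 72.4% ± 1.5 in NDKO and HFKO. Mthfd1l was 0.220% ± 0.0758 of the sum with Mthfd1 in NDWT and 2.77% ± 0.666 in HFWT, and 0.267% ± 0.132 and 2.71% ± 1.19 in TSP-1 null livers. Even on CDAHFD Aldh1l2 was at most 0.205% of the sum with Aldh1l1 in any library.

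Between the genotype labels, 0 of the 7 tested enzymes passed both thresholds on either diet, where 4.77% of all tested genes were called on the control diet and 0.496% on CDAHFD. On the control diet Aldh1l1 came closest, and all 5 libraries labelled TSP-1 null were above all 5 labelled WT. Its log2FC of 0.54 (SE 0.13, FDR 0.00832) passed the FDR, as did 13.1% of all tested genes, but not the fold threshold. It passed both with the median of ratios, at 0.62, and without NDWT replicate 2, NDKO replicate 3 or NDKO replicate 4, at 0.59, 0.60 and 0.62. Groups did not overlap, as labelled TSP-1 null above WT, for 2.33% of all tested genes on this diet. Mthfd1 had a log2FC of 0.34 (SE 0.09, FDR 0.0191) with overlapping groups, also below the fold threshold.

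On CDAHFD the genotype value furthest from 0 was that of Mthfd2, with a mean of 2.10 ± 0.481 FPKM in HFWT (SD, n = 5) and a ratio of means of 0.573, HFKO to HFWT. The log2FC was −0.74 (SE 0.20, FDR 0.0734), with a single HFKO library reaching into the range of HFWT. With voom on the fragments recovered from FPKM, Mthfd2 did pass (log2FC −0.81, FDR 0.0182), and it also passed without HFWT replicate 5 (−0.87, FDR 0.0488). Over all alternatives its FDR ranged from 0.0126 to 0.156. The difference between the genotype effects on the 2 diets did not pass for Mthfd2 (log2FC −0.42, SE 0.28, FDR 0.515). For Shmt1, Shmt2 and Mthfd1l the genotype values on CDAHFD were −0.00497, −0.01 and 0.02, with 95% half-widths of 0.18, 0.17 and 0.54, and with the median of ratios they were 0.09, 0.09 and 0.11. Among the paralogue ratios only that of Aldh1l2 to Aldh1l1 on the control diet differed between the labels, by −0.56 with overlapping groups (exact permutation test, p = 0.0238, adjusted 0.0408), and it did not pass with a pseudocount of 0.01 (adjusted p = 0.155) or in 9 of 10 fits without 1 library (adjusted p up to 0.0816).

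Folate uptake and supply within the cell were listed as 8 genes, of which 7 were tested. In WT mice 1 rose and 0 fell on CDAHFD, and in the TSP-1 null mice 3 rose and 0 fell, with list medians of −0.20 and 0.19 beside 0.53 and 0.50 for all tested genes. The shares of all tested genes called higher were 44.1% and 41.9%, and those called lower 4.62% and 4.0%. Ggh, the lysosomal hydrolase that trims folate polyglutamates, rose from 2.67 ± 0.625 to 8.01 ± 0.403 FPKM in WT (log2FC 1.58, FDR 6.5e-10) and by a log2FC of 1.23 in the TSP-1 null mice. Its opposite number Fpgs, which adds the glutamates, was at 49.6 ± 5.73 FPKM in NDWT and 33.5 ± 5.75 FPKM in HFWT (log2FC −0.57, FDR 9.16e-05), just short of the fold threshold, and was called lower with the median of ratios (−1.11) and with quantile normalization (−0.76). The reduced folate carrier Slc19a1 had a log2FC of 0.52 in WT and was called at 0.69 in the TSP-1 null mice, but at −0.32 and −0.05 with quantile normalization. The proton-coupled carrier Slc46a1, the receptor Folr2 and the mitochondrial carrier Slc25a32 had log2FC of −0.20, −0.48 and −0.33 in WT and of 0.19, −0.09 and −0.56 in the TSP-1 null mice, none of them called. In WT all 3 were called lower with either other scaling, and Slc46a1 in the TSP-1 null mice turned to −0.33 and −0.25. In the null livers Slc25a32 was called lower with both other scalings (−1.07 and −1.08) and Folr2 with the median of ratios (−0.61). Folr1 was not tested.

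Of 16 other enzymes that use folate carbon units, 4 were called higher and 4 lower in each genotype on the FPKM scale. Among all tested genes 44.1% were called higher and 4.62% lower in WT, and 41.9% and 4.0% in the TSP-1 null mice. The list medians were 0.18 and 0.07, beside 0.53 and 0.50 for all tested genes. Called lower were Gldc, Ftcd, Sardh and Dmgdh. Gldc, of the glycine cleavage system, fell from 53.0 ± 6.54 to 28.5 ± 2.81 FPKM in WT (log2FC −0.89, FDR 9.01e-06) and by −0.82 in the TSP-1 null mice. Ftcd, which handles the formimino group of histidine, fell from 149 ± 13.3 to 91.8 ± 12.8 FPKM in WT (log2FC −0.71). Sardh and Dmgdh, of choline breakdown, fell by log2FC of −0.60 each in WT and of −0.72 and −0.84 in the TSP-1 null mice. All 4 kept a negative sign under both other scalings. The other glycine cleavage genes Amt, Gcsh and Dld had log2FC of −0.04, −0.20 and 0.14 in WT and were not called in either genotype on the FPKM scale. With the median of ratios they were at −0.58, −0.74 and −0.40 in WT, where Gcsh was called lower.

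Among the same 16, Mthfd2l, Mtr, Mtfmt and Atic were called higher in both genotypes on the FPKM scale. Mthfd2l, the mitochondrial relative of Mthfd2, had a log2FC of 1.29 in WT and 0.86 in the TSP-1 null mice, but 0.22 and −0.08 with quantile normalization. Methionine synthase, Mtr, was at 0.75 and 1.12, but at −0.07 in WT with quantile normalization. Mtfmt, which formylates the mitochondrial initiator transfer RNA, was at 0.81 and 0.88. Atic, which uses formyltetrahydrofolate in purine synthesis, was at 0.83 and 0.81, and both were under the fold threshold with either other scaling. Mtrr, Mthfs, Mthfsl and Gart were not called, with log2FC between 0.22 and 0.44 in WT.

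The 8 genes of serine synthesis and of serine and glycine transport had 5 called higher in WT and 7 in the TSP-1 null mice on the FPKM scale. On that scale 0 were called lower, and the list medians were 2.32 and 2.45. With either other scaling 5 were called higher and 1 lower in WT. In the TSP-1 null mice 6 were called higher with the median of ratios and 5 with quantile normalization, with 0 lower. Of all tested genes 44.1% and 41.9% were called higher. Phgdh, the entry enzyme of serine synthesis, rose from 0.0720 ± 0.0550 to 1.00 ± 0.299 FPKM in WT (log2FC 2.70, FDR 3.5e-08), and Psat1, the aminotransferase, from 0.0952 ± 0.0515 to 1.26 ± 0.215 FPKM (log2FC 2.83, FDR 3.41e-09). Like Mthfd2, both exceeded 0.5 FPKM in the 10 CDAHFD libraries only. The phosphatase Psph had a log2FC of 0.50 in WT and was called at 0.83 in the TSP-1 null mice, but had −0.50 and −0.06 with quantile normalization. Transporters of serine, glutamine or glycine were called as well, Slc1a5 at 3.13 and 2.47, Slc1a4 at 1.94 and 2.43, and Slc6a9 at 1.16 in the TSP-1 null mice (0.54 in WT, or −0.09 with quantile normalization). Sfxn3, of the family of mitochondrial serine carriers, rose by 2.88 and 2.59. The serine carrier Sfxn1 stood at −0.44 in WT and 0.04 in the TSP-1 null mice and was not called on the FPKM scale. With the median of ratios Sfxn1 was at −0.98 and −0.47. In WT it was called lower with that scaling and with quantile normalization (−0.72). Sfxn1 was higher in the libraries labelled TSP-1 null on CDAHFD (log2FC 0.62, SE 0.10, FDR 0.00286), and Slc6a9 lower in those on the control diet (log2FC −0.66, SE 0.19, FDR 0.0237).

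**Figure D4:**
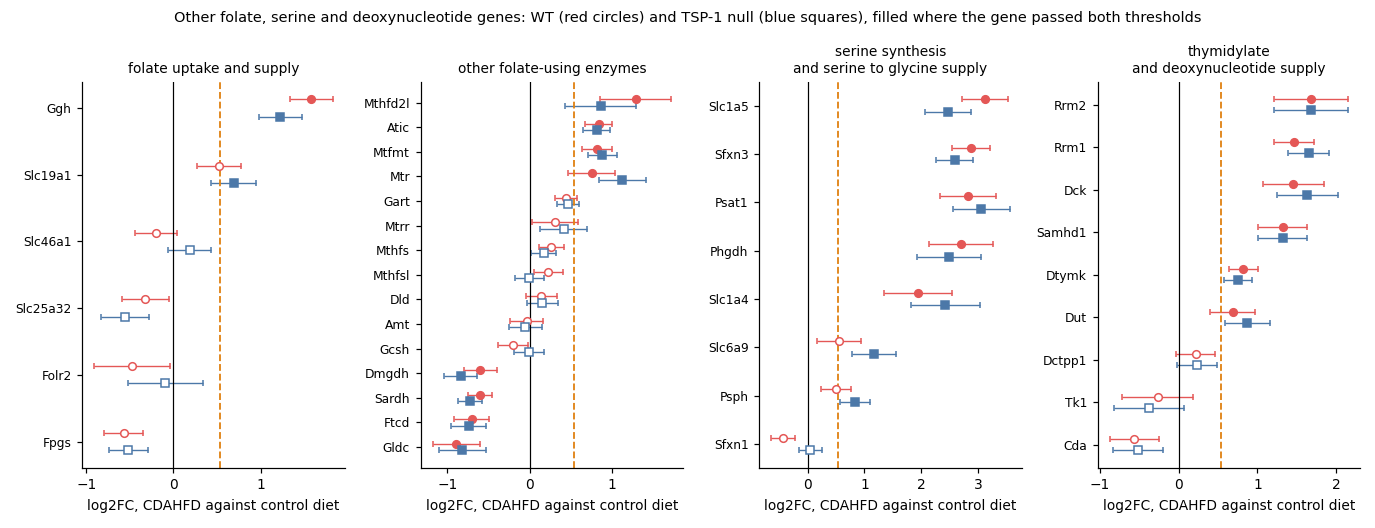
log2FC under CDAHFD for genes of 4 lists around the 8 enzymes, with 95% confidence intervals from limma, in WT (red circles) and TSP-1 null mice (blue squares). Filled symbols passed both thresholds and the dashed orange line is the median of all tested genes in WT. The serine genes Phgdh, Psat1, Slc1a5 and Sfxn3 reach log2FC between 2.47 and 3.13, whereas Gldc, Ftcd, Sardh and Dmgdh lie below 0.

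On the output side, the list of thymidylate and deoxynucleotide supply had 6 of 10 genes called higher in WT and 7 in the TSP-1 null mice, with 0 lower on the FPKM scale, where 44.1% and 41.9% of all tested genes were called higher. With either other scaling 4 were called higher and 2 lower in each genotype, the latter being the thymidine kinase Tk1 and the cytidine deaminase Cda, both named after their values were seen. On the FPKM scale Tk1 was at −0.26 and −0.37 and Cda at −0.56 and −0.52. Both subunits of ribonucleotide reductase were among the genes called higher, Rrm1 at a log2FC of 1.46 and 1.65 and Rrm2 at 1.68 in both genotypes. Thymidylate kinase, Dtymk, was at 0.82 and 0.75 (under the fold threshold with either other scaling), the nucleoside kinase Dck at 1.45 and 1.63, and Samhd1, which degrades deoxynucleotides, at 1.32 in both. Of the 8 genes of de novo purine synthesis 4 were called higher in WT, near the 44.1% of all tested genes, and 2 in the TSP-1 null mice, below the 41.9%, namely Prps2 and Atic in both and Ppat and Pfas in WT, the last pair at −0.07 and −0.17 with quantile normalization. With the median of ratios only 1 of these 8 was called higher in each genotype.

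Proliferation markers and a part of the ATF4 target genes were also called higher on CDAHFD. All 14 proliferation markers were called higher on CDAHFD in both genotypes (13 with the median of ratios, and 9 in WT and 12 in the TSP-1 null mice with quantile normalization), their summed level going from 16.7 to 20.8 FPKM in NDWT to 53.8 to 64.2 FPKM in HFWT and from 11.8 to 14.5 FPKM in NDKO to 40.3 to 67.5 FPKM in HFKO. Of the 14, Mki67, Top2a, Ccna2, Ccnb1, Cdk1 and Aurkb exceeded 0.5 FPKM in the 10 CDAHFD libraries only and so entered the test through the diet in which they were high (all but Mki67 named after their values were seen), and 44.1% and 41.9% of all tested genes were called higher. Mki67 was at 0.331 ± 0.0781 FPKM in NDWT and 2.47 ± 0.306 FPKM in HFWT, and Mcm2, Mcm5, Mcm6 and Pcna had log2FC of 1.92, 2.41, 2.48 and 1.43 in WT. Of the ATF4 target genes 13 were tested, and 8 were called higher in each genotype, with 1 lower in the TSP-1 null mice (Atf5, at −0.71, named after its values were seen). Among those called higher, Slc7a11, Psat1 and Phgdh exceeded 0.5 FPKM in CDAHFD libraries only. They too entered the test through the diet in which they were high, and Slc7a11 had at most 3 fragments in any control diet library. Asns, asparagine synthetase, rose by a log2FC of 3.75 in WT and 3.21 in the TSP-1 null mice, and Nupr1, Slc7a11 and Slc3a2 by 3.32, 2.91 and 1.25 in WT. Atf4 itself, named after its values were seen, had a log2FC of 0.45 and 0.38 and was not called, with −0.10 and −0.14 under the median of ratios. Psat1 and Phgdh stand on this list as well as on the serine list. The part of either group in the values of the folate enzymes was not tested.

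Markers of other cells also moved with the diet, and in bulk liver fewer cells of a type and less RNA per cell cannot be told apart. All 10 stellate cell and myofibroblast markers, all 7 cholangiocyte markers and 7 of 8 lymphocyte markers were called higher in each genotype, as were all 4 neutrophil markers tested. Of all tested genes 44.1% in WT and 41.9% in the TSP-1 null mice were called higher, and 4.62% and 4.0% lower. Among the markers of this paragraph, Timp1, Lox, Krt7, Cldn4, Prom1, Cd8a, Itgam and Cx3cr1 exceeded 0.5 FPKM in CDAHFD libraries only. They entered the test through the diet in which they were high. With quantile normalization 9 and 8 of the stellate cell markers were still called higher in WT and TSP-1 null livers, but 4 and 0 of the lymphocyte markers. Of 10 macrophage markers 7 were called higher and 2 lower, the latter being Clec4f and Timd4 of resident Kupffer cells (−1.22 and −3.52 in WT), and of 8 endothelial markers 2 were called higher in WT (Lyve1 and Vwf) and 4 in the TSP-1 null mice (Pecam1 and Fcgr2b in addition), against 0 and 1 with either other scaling. The endothelial markers Kdr and Cdh5 were called lower in WT with either other scaling, at −0.77 and −0.75 with the median of ratios. Summed cholangiocyte markers went from 12.6 to 18.2 FPKM over the control diet libraries to 184.5 to 495.6 FPKM over the CDAHFD libraries, summed stellate cell markers from 12.7 to 18.2 to 118.6 to 293.6 FPKM, and summed macrophage markers from 128.6 to 224.6 to 568.9 to 1238 FPKM. Lymphocyte markers summed to 2.24 to 6.24 FPKM on the control diet and 7.68 to 18.7 FPKM on CDAHFD, neutrophil markers to 1.92 to 6.09 and 17.0 to 39.8 FPKM, and endothelial markers to 54.9 to 73.8 and 65.5 to 102.6 FPKM. Among hepatocyte markers 0 of 10 were called higher, with 2 called lower in WT and 3 in the TSP-1 null mice (10 and 7 with the median of ratios, 0 and 1 with quantile normalization), those on the FPKM scale being Tat in both, Serpina1a in WT and Cps1 and Cyp2e1 in the TSP-1 null mice, and their sum ran from 38505 to 50004 FPKM on the control diet and from 29074 to 48395 FPKM on CDAHFD. The marker genes called lower, the endothelial ones, Spp1, Lyz2 and those that entered the test through CDAHFD are named here after their values were seen. Which cells the fragments of Mthfd2, Mthfd1l, Tyms and Aldh1l2 came from was not tested.

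Across the 20 libraries the enzymes grouped by their response to diet. Pearson's r of log2(FPKM + 0.1) was 0.91 between Mthfd2 and Mthfd1l, 0.94 between Mthfd2 and Tyms and −0.91 between Mthfd2 and Shmt1, but 0.06, 0.24 and −0.27 after group means were subtracted, so these relations rested on differences between groups. Mthfd1 and Aldh1l1 kept a relation within groups, with r of 0.78 over all libraries and 0.65 after subtraction, and Shmt2 and Aldh1l1 had 0.38 and 0.72. The libraries of a group share a diet and a genotype, and all values share library depth, so these r are descriptions.

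Genes nearest to each enzyme were taken from the 3 tested genes with the highest r over the 20 libraries. Beside Mthfd1 stood the urea cycle genes Ass1 (r = 0.87) and Cps1 (0.83), with 0.75 and 0.63 after subtraction of group means. Beside Aldh1l1 stood Cyp27a1 (0.89), Cyp2d22 (0.86) and Slc6a12 (0.85), and beside Shmt1 stood Pbld1 (0.97), Dpyd (0.97) and Il1rap (0.96). After subtraction these were 0.69, 0.55 and 0.60 for Aldh1l1, and 0.77, 0.70 and 0.64 for Shmt1. Mthfd2 was closest to Gpx2 (0.98), Ggta1 (0.98) and Mogat2 (0.98), and Mthfd1l to Hnrnpa1 (0.98), Sergef (0.97) and Ctps2 (0.97). With group means subtracted, r fell to 0.74, 0.46 and 0.53 for Mthfd2 and to 0.67, 0.52 and 0.55 for Mthfd1l. Tyms was closest to Rpl21, Snx2 and H2-M2 (0.97 each), or 0.76, 0.62 and 0.63 after subtraction. Aldh1l2 was closest to Lonp1, Mgat4b and Myrf (0.96, 0.96 and 0.95), or 0.66, 0.57 and 0.61 after subtraction. Shmt2 was closest to Prss36, Gm4956 and Khk (0.80, 0.75 and 0.75), or 0.79, 0.70 and 0.74 after subtraction.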

How the data were processed

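The authors sequenced poly(A)-selected liver RNA on an Illumina instrument and processed the reads with QuickRNASeq, and the submitters' notes name STAR 2.5.2 and featureCounts of Subread 1.5.1. The deposited values are FPKM for 38924 genes in 20 libraries, 5 mice per group, and were not scaled further between libraries. The notes name GRCh38, but the table's coordinates are mouse GRCm38. The annotation release and strand setting are not given in the sources used here, so genes overlapping on opposite strands may share fragments. Groups follow the labels. Multiplying FPKM by gene length and library total gave whole fragments for at least 99.98% of values checked (tolerance 0.1 fragments). No pair of libraries in a group agreed within sampling noise (chi-square per degree of freedom at least 12.1). Floors cover counting error only, since no molecular identifiers were used.

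The DEG calls came from limma 3.58.1 under R 4.3.3 (trended eBayes, 20 libraries in 1 fit) on log2(FPKM + 0.1), for 14524 genes that exceeded 0.5 FPKM in 5 or more libraries, with two-sided Benjamini-Hochberg FDR within each comparison. The script was tested on simulated data. Ratios, and Aldh1l2, were tested by exact two-sided permutation in Python 3.11.15 with scipy 1.17.1. Members, lists and alternatives were chosen with earlier results of these data known. Named are all members, Thbs1, every gene of the first 3 pathway lists, up to 5 called genes with the lowest WT FDR in each other list, the 3 nearest genes of each member and genes overlapping a member. Mthfsl was found under an older name by its gene identifier, as was Adgre1. Alternatives were pseudocounts of 0.01 and 1, other filters on low values, scaling by the median of ratios or by quantiles, voom on recovered fragments, eBayes without trend or robust, fits of the compared groups only, a replicate block, medians in place of means, and leaving out each library. Some genes that this rule takes are not reported here, though list counts include them. Same-numbered libraries were checked for pairing.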

Additional observations from a re-analysis of the deposited data

Results flagged for a closer look

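Single libraries lay apart from the other 4 of their group in 5 of the 44 groups examined, by Dixon's ratio of the gap to the range, and chance alone gives about 1 in 20. Shmt1 in HFWT had a ratio of 0.747, its lowest library being at 26.0 FPKM and the next at 31.3. Shmt1 in HFKO had a ratio of 0.717, with 26.5 FPKM below 30.8. Aldh1l1 in HFKO had a ratio of 0.789, with 122 FPKM below 148. Aldh1l2 in NDWT had a ratio of 0.812, with 0.046 FPKM above 0.033, a difference of a few fragments. The log2 ratio of Shmt2 to Shmt1 in HFWT had a ratio of 0.763, the highest library being at 1.91 and the next at 1.36. The HFWT library with the low Shmt1 also had the highest Shmt2 and Aldh1l1 of its group, and the HFKO library with the low Shmt1 had the lowest Aldh1l1, Shmt2 and Mthfd1. These flags were not pursued further.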

How the results depend on the processing

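The diet calls of Mthfd2, Mthfd1l and Shmt1 were kept under both other scalings and both other pseudocounts, and those of other enzymes were not. In WT under CDAHFD, Mthfd1 went to −0.53 with the median of ratios and −0.11 with quantile normalization, Aldh1l1 to 0.032 and Tyms to −0.14 with quantile normalization, and Tyms in TSP-1 null mice to −0.0064. Between genotypes on CDAHFD, the median of ratios gave 0.092 for Shmt1, 0.088 for Shmt2 and 0.061 for Aldh1l1, and quantile normalization gave 0.030 for Shmt1 and 0.028 for Shmt2. The interaction of Tyms was −0.0067 with a pseudocount of 1, and the control diet genotype difference of Aldh1l2 was 0.0015 with the median of ratios. Enzymes called were 3 in TSP-1 null mice with quantile normalization, 1 between genotypes on the control diet with the median of ratios and 1 on CDAHFD with voom. Causes were not tested.

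As differences of medians, the paralogue contrasts were 0.35 and 0.58 for Shmt2 to Shmt1, 0.89 and 1.97 for Aldh1l2 to Aldh1l1 and 2.96 and 2.51 for Mthfd1l to Mthfd1 under diet, −0.63 for Aldh1l2 to Aldh1l1 between genotypes on the control diet and 0.062 for Shmt2 to Shmt1 on CDAHFD. Those under diet all lost their pass (adjusted exact p = 0.0816). Because arrangements tie at the largest difference of medians, groups without overlap can give no lower unadjusted p in that test, and it cannot tell whether these contrasts hold. Pseudocounts of 1 and 0.01 gave Aldh1l2 to Aldh1l1 a WT diet value of 0.23 and a control diet genotype value of −0.69, and 0.01 gave Mthfd1l to Mthfd1 0.15 between genotypes on the control diet.

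Leaving out 1 library at a time gave ranges of −0.029 to 0.070 (Mthfd1) and −0.15 to 0.032 (Aldh1l1) for diet in WT. Between genotypes on the control diet they were −0.027 to 0.073 (Shmt1) and −0.089 to 0.061 (Aldh1l2), and on CDAHFD −0.065 to 0.047 (Shmt1), −0.056 to 0.058 (Shmt2), −0.11 to 0.067 (Aldh1l1) and −0.12 to 0.12 (Mthfd1l). Interactions ran from −0.092 to 0.022 (Shmt1) and −0.016 to 0.13 (Tyms). Genotype ratios ran from −0.69 to −0.47 for Aldh1l2 to Aldh1l1 and −0.17 to 0.15 for Mthfd1l to Mthfd1 on the control diet, and from 0.23 to 0.45, −0.30 to 0.021 and, for Shmt2 to Shmt1, −0.057 to 0.12 on CDAHFD. Enzymes called ranged from 0 to 1 between genotypes on each diet.

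Same-numbered libraries did not deviate together (30 pairs, r from −0.133 to 0.0812), so the numbers pair nothing, and a fit with the replicate number as a block called 4, 5, 0, 0 and 0 enzymes, as without it. Depth limits Mthfd2, Mthfd1l and Aldh1l2 on the control diet.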
